A study of Homo sapiens with 6 samples.

Results

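The BCL2 family decides whether a cell's mitochondria release the proteins that start apoptosis, and 10 of its genes were followed here in the human glioblastoma cell line U251. The 10 members were chosen by gene name, from 58735 genes in the deposited table: the pro-survival members BCL2, BCL2A1, BCL2L1, BCL2L2 and MCL1, the effectors BAX and BAK1, and the BH3-only members BID, BCL2L11 and PMAIP1. Bulk poly(A) RNA-seq was compared between cells given 10 ng/mL tumor necrosis factor-α, an inflammatory cytokine, over 24 h (TNF-α group, 3 libraries) and cells given the same volume of sterile water for the same time (NC group, 3 libraries). Both groups grew in the same serum-containing medium, and the labels give no engineered allele in either. The labels give the 3 libraries of a group as biological replicates. The comparison is limited to 1 cell line, 1 dose and 1 time, and it measured RNA, not protein, cleavage or binding between members, through which much of this family acts. In bulk RNA, fewer cells that express a gene and less RNA of it per cell cannot be told apart.

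The effectors BAX and BAK form pores in the outer mitochondrial membrane, through which cytochrome c escapes and activates caspases. The pro-survival proteins bind and restrain the effectors, and the BH3-only proteins free the effectors by occupying the groove of the pro-survival proteins or, as BID and BIM can, activate BAX and BAK by binding them directly. TNF-α can send either a death signal through caspase-8, which cleaves BID, or a survival signal through NF-κB, of which BCL2A1 and BCL2L1 are textbook target genes.

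Among the 6 libraries, TNF-α replicates 2 and 3 stood apart from the other 4. Genes of over 8 kb held 16.6% and 17.9% of the reads of this pair, and 28.8% to 29.1% in the other libraries, and ribosomal protein genes took 7.30% and 6.26%, where the others had 2.62% to 2.90%. Between 31992167 and 37897044 reads fell in genes in each library. The library size by which the deposited FPKM is divided was 0.693 and 0.759 times these reads in the pair and 0.925 to 0.959 times in the other libraries, and the FPKM of all genes summed to 463340 and 408175 in the pair and to 256373 to 266716 in the others. Fold changes of the members are given with and without the pair. Among glial and glioblastoma markers VIM, NES, SOX2 and CD44 were expressed in every library and S100B was at or near 0. GFAP was at 7.10 to 9.47 FPKM in the NC libraries and at 1.58 to 2.60 FPKM in the TNF-α libraries and passed the test (log2 fold change -1.54, adjusted p = 0.0210 in limma; -1.83 without the pair). SOX2 was at 58.9 to 66.3 FPKM in the NC libraries, against 57.8, 22.6 and 30.4 FPKM across TNF-α replicates 1 to 3, and VIM at 325 to 362 and at 434, 974 and 850 FPKM. The summed level of 6 leukocyte markers was 0.670 to 0.880 FPKM in the NC group and 0.533 to 1.66 FPKM in the TNF-α group, with PTPRC and CD3E at 0 in all 6 libraries. The summed levels of the NC and TNF-α groups were 0.126 to 0.173 and 0.210 to 0.342 FPKM for 3 endothelial markers, 0.809 to 0.964 and 0.443 to 1.40 FPKM for 3 epithelial markers, and 4.45 to 4.82 and 1.96 to 4.50 FPKM for 3 neuron markers. Their part in the results was not tested.

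The 250 bases before each start that RefSeq (GRCh38.p14) lists for these genes were searched on both strands for 5 short motifs. Windows were listed for 8 of the 10 members, 13 windows in all, and none was listed for MCL1 and BCL2L2. The stretches of 30 bases printed here hold the motif match nearest the start, in capitals, on the strand of the gene. The motifs were chosen with earlier results of these data known. BCL2A1 shared TATAAA with BCL2L1, which did not pass the test between the groups, and BCL2 held none of the 5 motifs. The part of these motifs in the RNA levels was not tested. The stretches of BCL2A1 are at chr15:79971249-79971278 and chr15:79971310-79971339 and that of BCL2L1 is at chr20:31724071-31724100, all on the minus strand, and the capitals mark TATAAA or TTTCNNTTTC.
BCL2A1, TATAAA: gaggaaggatatTATAAAgtgatgcaaaca
BCL2A1, TTTC repeat: cattttaaacTTTCTCTTTCatacatgaca
BCL2L1, TATAAA: tggaaatgtgatTATAAAtgttgatttttt
The next 4 stretches carry the GC box GGGCGG, in BAX on chr19:48954811-48954840 (plus strand), in BAK1 on chr6:33580337-33580366 (minus strand), in BID on chr22:17774502-17774531 (minus strand) and in PMAIP1 on chr18:59899902-59899931 (plus strand).
BAX, GC box: ggccattttgcgGGGCGGccacgtgaagga
BAK1, GC box: ggtggggaaagtGGGCGGgacatgctcctg
BID, GC box: cggggcgggccgGGGCGGgcccgggcgtgg
PMAIP1, GC box: gggcggggacagGGGCGGgccgggcgtcta
GGGCGG was found in 42.6% of all 35116 listed windows. Counted by gene, which is another measure than the share of windows, it was in 5 of the 8 members. These were BAX, BAK1, BID (4 of its 5 windows, some of which overlap), BCL2L11 and PMAIP1, and it was not in the windows of BCL2, BCL2A1 and BCL2L1. TATAAA was found in 10.7% of all windows and in BCL2A1 and 1 of the 2 windows of BCL2L1, and TTTCNNTTTC was found in 3.02% of all windows and in BCL2A1 alone among the members. The NF-κB consensus was found in 9.96% of all windows and TGANTCA, the AP-1 site, in 6.57%, and neither was found in a window of these 8 members, which says only that these letters are not within the 250 bases. The window of BCL2A1 was the poorest in G and C, at 38.8%, beside a median of 58.0% over all windows and 76.8% in BCL2L11. The BCL2A1 window (chr15:79971147-79971446) lies inside the deposited gene, whose annotated 5′ end lies further upstream than the RefSeq start. The same holds for the windows of BCL2 and BCL2L11, for 1 of the 2 windows of BCL2L1 and for the BID windows with GGGCGG. The printed BID stretch thus lies inside its gene, as does nearly all of the printed BAX stretch.

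In the NC group, RNA of the family was dominated by a few members. MCL1, a short-lived pro-survival protein, was highest at 107 ± 2.94 FPKM (SD, n = 3), where FPKM is the number of fragments scaled by gene length and library size, as the authors computed it. It was followed by BCL2L1, which encodes BCL-XL, at 44.8 ± 2.84 FPKM and BAX at 42.0 ± 2.98 FPKM, whose ranges overlapped. PMAIP1, which encodes NOXA, stood at 34.7 ± 3.56 FPKM and BAK1 at 23.2 ± 1.35 FPKM. Lower down came BCL2L2, which encodes BCL-W, at 8.60 ± 0.600 FPKM, BID at 6.51 ± 0.234 FPKM and BCL2L11, which encodes BIM, at 2.61 ± 0.117 FPKM. BCL2 itself was at 0.728 ± 0.0725 FPKM and BCL2A1 at 0.0866 ± 0.101 FPKM. Apart from BCL2L1 and BAX, neighbours in this order did not overlap. Among the 12136 genes tested, 97.4% were lower than MCL1 in the NC group. BCL2 has no such rank, since it was not among the genes tested, whose filter removes most genes at so low a level.

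**Figure D1:**
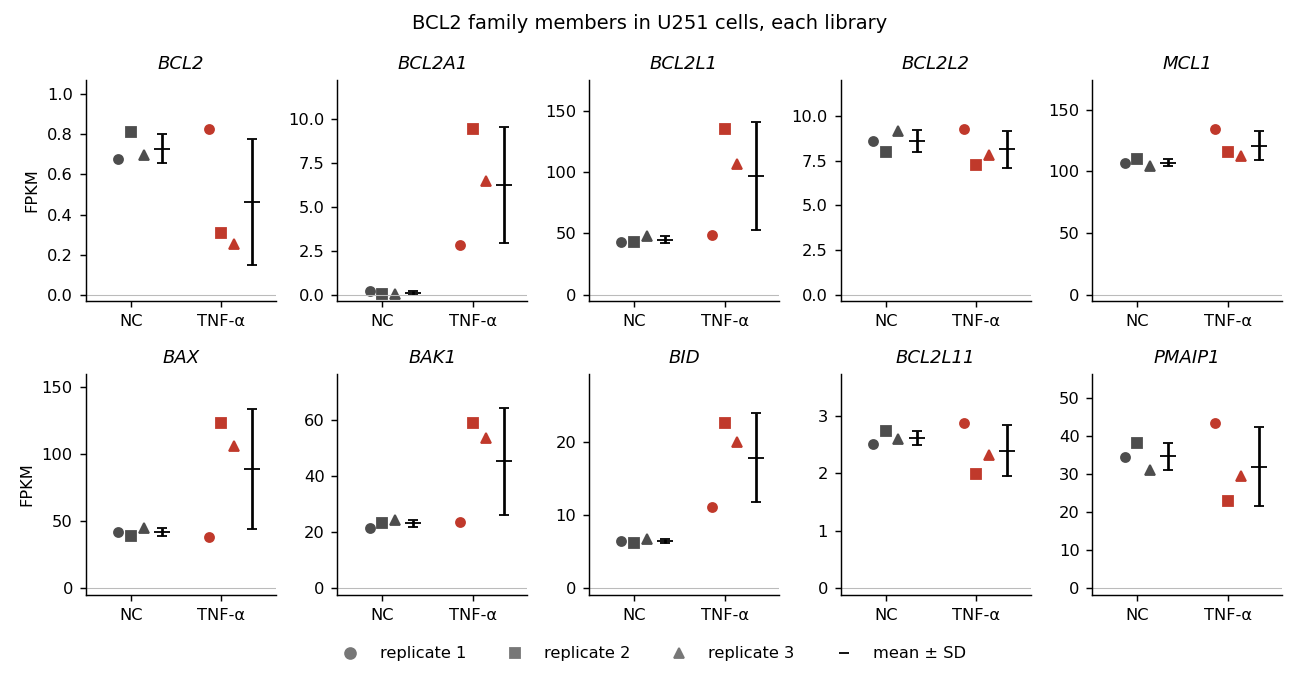
FPKM (y axes, linear, one scale per gene) of the 10 members in the NC and TNF-α groups, with 1 symbol per library and the mean ± SD (n = 3) beside each group. BCL2A1, BCL2L1, BID and MCL1 lie above every NC library in all 3 TNF-α libraries. Groups without overlap, in either direction, made up 30.1% of all genes tested. BAX, BAK1 and BCL2L1 are far above the NC libraries only in TNF-α replicates 2 and 3.

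To determine which members differed between the groups, log2(FPKM + 1) was tested with limma over every gene that reached an FPKM of 1 in 3 or more libraries, with Benjamini-Hochberg adjustment over the 12136 genes and a threshold of 0.05. Of the 10 members, 9 passed this filter. BCL2 did not pass it, and BCL2A1 passed only through its TNF-α libraries and so had to differ. Only BCL2A1 passed the test, 1 of 9 members tested, where 1.01% of all genes tested passed. At an unadjusted p under 0.05 there were 3 members, BCL2A1, BID and BCL2L1, beside 24.2% of all genes, and the groups did not overlap for 4 members, BCL2A1, BCL2L1, BID and MCL1, beside 30.1% of all genes. Over the 8 members with an FPKM of at least 1 in every library the median log2 fold change was 0.50, and over all genes tested it was 0.04. Without TNF-α replicates 2 and 3 these medians were 0.12 and -0.01, and with TPM they were 0.01 and -0.42.

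BCL2A1, which encodes BFL-1 (A1) and lies on chr15:79960889-79971446, was almost without reads in NC cells and present in all TNF-α libraries. Its level was 0.203, 0.0280 and 0.0286 FPKM in NC replicates 1 to 3, which were 8, 1 and 1 reads. Its level was 2.83, 9.39 and 6.47 FPKM in TNF-α replicates 1 to 3, which were 99, 265 and 171 reads. Every TNF-α library was above every NC library, TNF-α replicate 1 being the lowest of its group. The log2 fold change was 2.62 (SE 0.36, 95% interval 1.75 to 3.49), with an adjusted p of 0.0359 in limma. This scale understates a gene so low in the control: with a pseudocount of 0.1 the value was 5.05, and 10 NC reads against 535 TNF-α reads made a rate ratio of 65.7 (95% exact interval 35.4 to 138, counting error only). Without TNF-α replicates 2 and 3, which leaves a lone TNF-α library, the log2 fold change was 1.82. Fits that left out libraries kept the filter of all 6 libraries, and BCL2A1 reached an FPKM of 1 in the 3 TNF-α libraries only. In each fit without a TNF-α library, the gene thus entered through values that were left out. The call was lost without any 1 of the 5 libraries other than TNF-α replicate 1, at adjusted p-values of 0.0714 to 0.242 in limma. It was also lost when all genes above 0 were tested (0.114), and with limma-voom on the recovered reads (0.0916), while over all 20 alternatives the log2 fold change was between 1.82 and 6.19.

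BCL2L1, on chr20:31664452-31723989, was higher mainly in 2 of the TNF-α libraries. It was at 43.3, 43.1 and 48.1 FPKM in NC replicates 1 to 3 and at 49.1, 135 and 107 FPKM in TNF-α replicates 1 to 3. TNF-α replicate 1 lay just above the highest NC library and the others were more than double it, so that the groups did not overlap. Its fold change on the log2 scale was 0.98 (SE 0.37, 95% interval 0.08 to 1.88; adjusted p = 0.195 in limma) and did not pass the test. Without TNF-α replicates 2 and 3 it was 0.13. Without TNF-α replicate 1 it was 1.40 (adjusted p = 2.54e-05 in limma), in a fit where 79.4% of all genes passed. The antisense gene ABALON overlaps 43.0% of the exonic bases of BCL2L1, and reads of the pair cannot be told apart without strand. ABALON itself was at 1.47 to 2.02 FPKM in the NC libraries and at 0.750 to 1.91 FPKM in the TNF-α libraries.

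MCL1, on chr1:150574551-150579738, was the highest member in the NC group and TNF-α replicates 1 and 3. It was at 107, 110 and 104 FPKM in NC replicates 1 to 3 and at 134, 116 and 112 FPKM in TNF-α replicates 1 to 3. The groups did not overlap, but TNF-α replicate 3 lay close to the highest NC library. On the log2 scale it differed by 0.16 (SE 0.15, 95% interval -0.20 to 0.53; adjusted p = 0.413 in limma), and it took the opposite sign under TPM, at -0.34, and under quantile normalization, at -0.36. TPM moved the median of all genes from 0.04 to -0.42. Without TNF-α replicates 2 and 3, which leaves a lone TNF-α library, the value was 0.32.

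BCL2L2, on chr14:23298790-23311759, and BCL2, on chr18:63123346-63320128, did not pass a test. BCL2L2 was at 8.63, 7.99 and 9.19 FPKM in NC replicates 1 to 3 and at 9.26, 7.29 and 7.85 FPKM in TNF-α replicates 1 to 3. The groups overlapped as a whole, with TNF-α replicate 1 just above the NC range and replicates 2 and 3 below it. Its log2 fold change was -0.08 (SE 0.14, 95% interval -0.41 to 0.25; adjusted p = 0.666 in limma), and 24.3% of its exonic bases overlap those of BCL2L2-PABPN1 or PPP1R3E, so that its value is uncertain. BCL2 was at 0.677, 0.811 and 0.696 FPKM in NC replicates 1 to 3, from 288, 313 and 263 reads. In TNF-α replicates 1 to 3 it was at 0.825, 0.308 and 0.252 FPKM, from 312, 94 and 72 reads. TNF-α replicate 1 was the highest of the 6 libraries and replicates 2 and 3 were the lowest, so that the groups overlapped. The mean log2(FPKM + 1) differed by -0.26, with p = 0.400 in an exact two-sided permutation test, whose smallest possible p in this design is 0.1. With the filter lowered to an FPKM of 0.5 it entered the limma fit and had an adjusted p of 0.280.

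The effectors BAX and BAK1 were high in TNF-α replicates 2 and 3 and not in replicate 1. BAX, on chr19:48954815-48961798, was at 41.9, 39.2 and 45.1 FPKM in NC replicates 1 to 3 and at 38.5, 123 and 106 FPKM in TNF-α replicates 1 to 3. TNF-α replicate 1 was below all NC libraries, and the other pair was more than double the highest of them. BAX differed by a log2 fold change of 0.91 (SE 0.44, 95% interval -0.14 to 1.96; adjusted p = 0.197 in limma), and it was -0.12 without TNF-α replicates 2 and 3. BAK1, on chr6:33572547-33580293, was at 21.7, 23.5 and 24.4 FPKM in NC replicates 1 to 3 and at 23.6, 58.9 and 53.7 FPKM in TNF-α replicates 1 to 3. Here TNF-α replicate 1 lay inside the NC range. BAK1 differed by a log2 fold change of 0.84 (SE 0.35, 95% interval -0.01 to 1.68; adjusted p = 0.195 in limma), and 0.02 without TNF-α replicates 2 and 3. Of the stretches of 75 bases in its exons, 8.41% are shared with the pseudogene BAK1P1, at 0.144 to 1.62 FPKM, or with GGNBP1, so that the value of BAK1 is uncertain to that extent. Without TNF-α replicate 1 both effectors passed, BAX at 1.42 and BAK1 at 1.24 (adjusted p = 1.65e-05 and 1.49e-05 in limma), in a fit where 79.4% of all genes passed.

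BID, on chr22:17734138-17774770, encodes the BH3-only protein that caspase-8 cleaves and was the only 1 of the 3 BH3-only members above the NC range in all 3 TNF-α libraries. It was at 6.52, 6.28 and 6.74 FPKM in NC replicates 1 to 3 and at 11.1, 22.6 and 20.0 FPKM in TNF-α replicates 1 to 3. The NC libraries lay within a narrow range, and TNF-α replicate 1 was between them and the other TNF-α libraries. The log2 fold change was 1.28 (SE 0.26, 95% interval 0.64 to 1.91), with an unadjusted p of 0.00251 and an adjusted p of 0.115 in limma, so that it did not pass over all genes. It passed in 3 of the 20 alternatives: at 1.00 (adjusted p = 0.0250 in limma) after a correction for GC content and length, where 2.79% of all genes passed, at 0.68 (adjusted p = 0.00687 in limma) without TNF-α replicates 2 and 3, where 6.03% passed, and at 1.57 without TNF-α replicate 1. In that last fit 79.4% of all genes passed, so that passing it does not set BID apart. The log2 fold change of BID was positive in all 20 alternatives, as were those of BCL2A1, BCL2L1 and BAK1.

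PMAIP1, on chr18:59899948-59904306, and BCL2L11, on chr2:111119378-111168447, had groups that overlapped. PMAIP1, whose product neutralises MCL-1, was at 34.5, 38.3 and 31.2 FPKM in NC replicates 1 to 3 and at 43.4, 23.0 and 29.6 FPKM in TNF-α replicates 1 to 3. TNF-α replicate 1 was the highest of the 6 libraries and replicates 2 and 3 were the lowest. Its log2 fold change was -0.16 (SE 0.25, 95% interval -0.75 to 0.44; adjusted p = 0.629 in limma), and 0.32 without TNF-α replicates 2 and 3. Without TNF-α replicate 1 it was -0.39 (adjusted p = 0.0227 in limma), in a fit where 79.4% of all genes passed. BCL2L11, whose product binds every pro-survival member, was at 2.51, 2.74 and 2.59 FPKM in NC replicates 1 to 3 and at 2.87, 1.99 and 2.31 FPKM in TNF-α replicates 1 to 3. It had the same order of libraries, with replicate 1 highest and replicates 2 and 3 lowest. The log2 fold change was -0.10 (SE 0.14, 95% interval -0.43 to 0.23; adjusted p = 0.578 in limma), and it was positive after the GC content and length correction, at 0.17. Exons of the antisense gene MIR4435-2HG, at 3.37 to 5.36 FPKM, overlap 10.9% of its exonic bases.

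**Figure D2:**
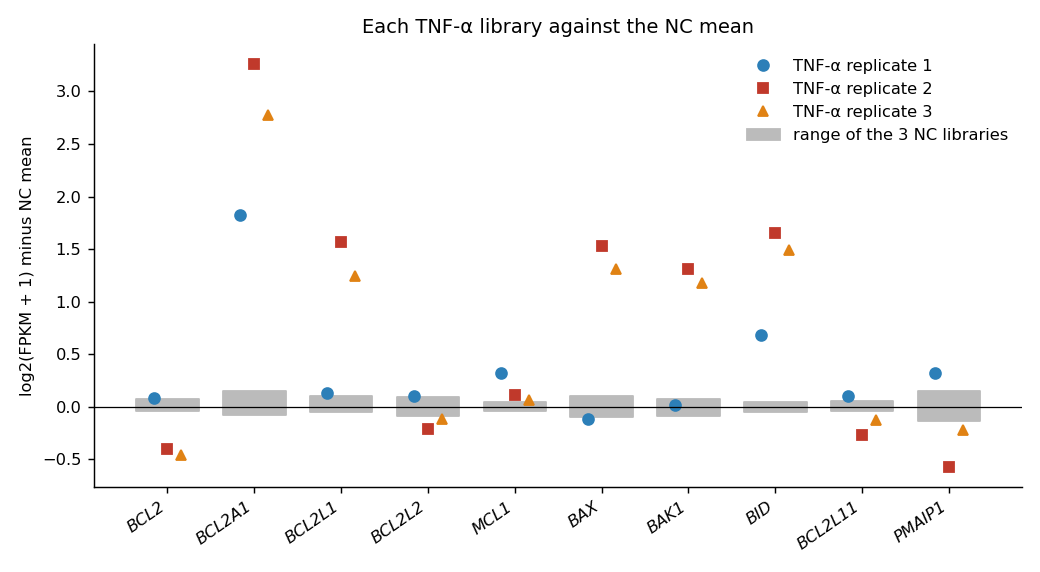
Log2(FPKM + 1) of each TNF-α library minus the mean of the NC libraries (y axis) for the 10 members (x axis), with the range of the 3 NC libraries in grey. In TNF-α replicate 1 the difference is 1.82 for BCL2A1 and 0.68 for BID, and it is 0.32 or less in the other members.

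In TNF-α replicate 1, 8 of the members lay within 0.32 of the NC mean on the log2(FPKM + 1) scale, and BCL2A1 and BID were higher by 1.82 and 0.68. In TNF-α replicates 2 and 3, BAX was higher by 1.53 and 1.31, BCL2L1 by 1.57 and 1.24, and BAK1 by 1.31 and 1.18, while BCL2, BCL2L2, BCL2L11 and PMAIP1 were below every NC library. BCL2A1, by 3.26 and 2.78, and BID, by 1.65 and 1.49, were also higher in this pair, and MCL1 differed by 0.11 and 0.06. The longest transcripts of BCL2L1, BAX and BAK1 had 56.9%, 58.9% and 58.8% GC, those of BCL2A1 and BID had 39.9% and 49.7%, and that of MCL1 had 45.1%, beside a median of 47.9% over all genes tested. Those of BCL2, BCL2L2, BCL2L11 and PMAIP1 had 45.6%, 52.3%, 45.7% and 37.2%, and the part of GC content in these values was not tested beyond the correction that follows. After the library ratios were corrected for GC content and length, the log2 fold changes were 0.29 for BAX, 0.28 for BAK1 and 0.52 for BCL2L1, against 0.91, 0.84 and 0.98 before. The same correction left BCL2A1 at 2.40 and BID at 1.00. It moved MCL1 from 0.16 to 0.28, BCL2L2 from -0.08 to -0.24, PMAIP1 from -0.16 to -0.29 and BCL2L11 from -0.10 to 0.17. With a correction for length alone, BAX was at 0.54, BAK1 at 0.45 and BCL2L1 at 0.68.

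**Figure D3:**
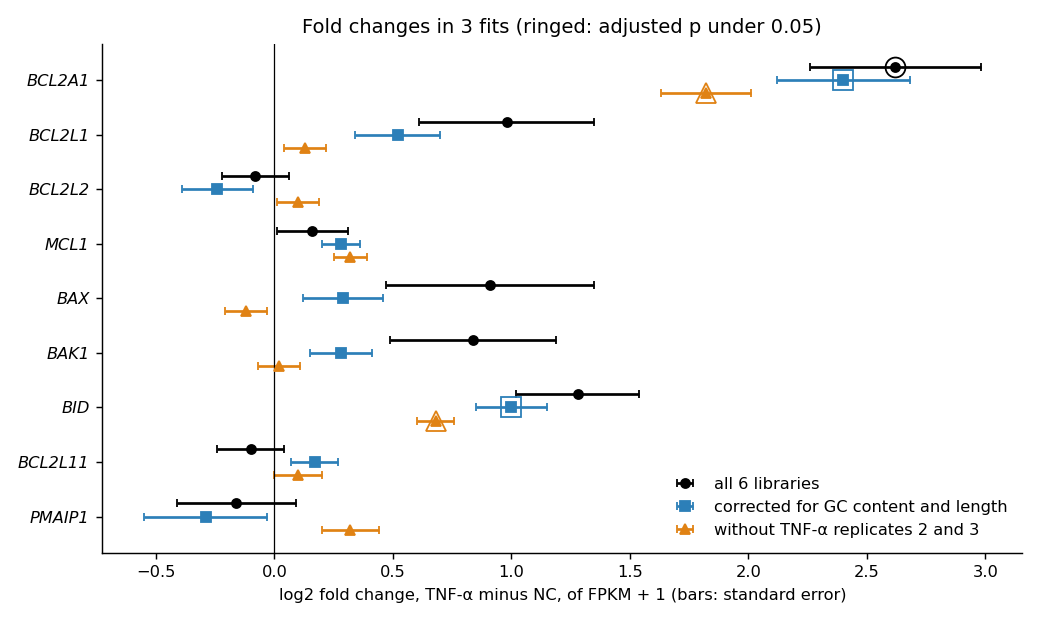
Log2 fold change of FPKM + 1, TNF-α minus NC (x axis, bars are the standard error), of the 9 tested members (y axis) with all 6 libraries, after the GC content and length correction, and without TNF-α replicates 2 and 3; rings mark an adjusted p under 0.05. BCL2A1 is ringed in all 3 fits and BID in the latter pair, while BAX moves from 0.91 to 0.29 and -0.12. The last fit holds a lone TNF-α library, assumed to vary like the NC libraries, and BCL2A1 entered it through the libraries left out.

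To compare members inside a library, where a scaling of the whole library cancels, each was expressed as a share of the summed FPKM of the 10. A difference between libraries that depends on gene length or GC content does not cancel in such a share. The sum itself was 267, 272 and 272 FPKM in NC replicates 1 to 3 and 315, 497 and 445 FPKM in TNF-α replicates 1 to 3, which was 0.102% to 0.106% of the summed FPKM of all genes in the NC libraries and 0.118%, 0.107% and 0.109% of it across TNF-α replicates 1 to 3. MCL1 took 38.2% to 40.4% of it in the NC libraries, against 42.4%, 23.3% and 25.1% across TNF-α replicates 1 to 3. BAX and BAK1 together took 23.0% to 25.5% in the NC libraries, against 19.7%, 36.7% and 35.9% across TNF-α replicates 1 to 3. The pro-survival members together took 59.5% to 59.9% in the NC libraries, against 62.1%, 53.8% and 52.4% across TNF-α replicates 1 to 3. BCL2A1 held 0.897%, 1.89% and 1.45% across TNF-α replicates 1 to 3 and at most 0.0761% in an NC library, and BID held 3.51%, 4.55% and 4.51% and at most 2.48% in an NC library, so that these shares of both were above the NC range in all 3 TNF-α libraries.

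**Figure D4:**
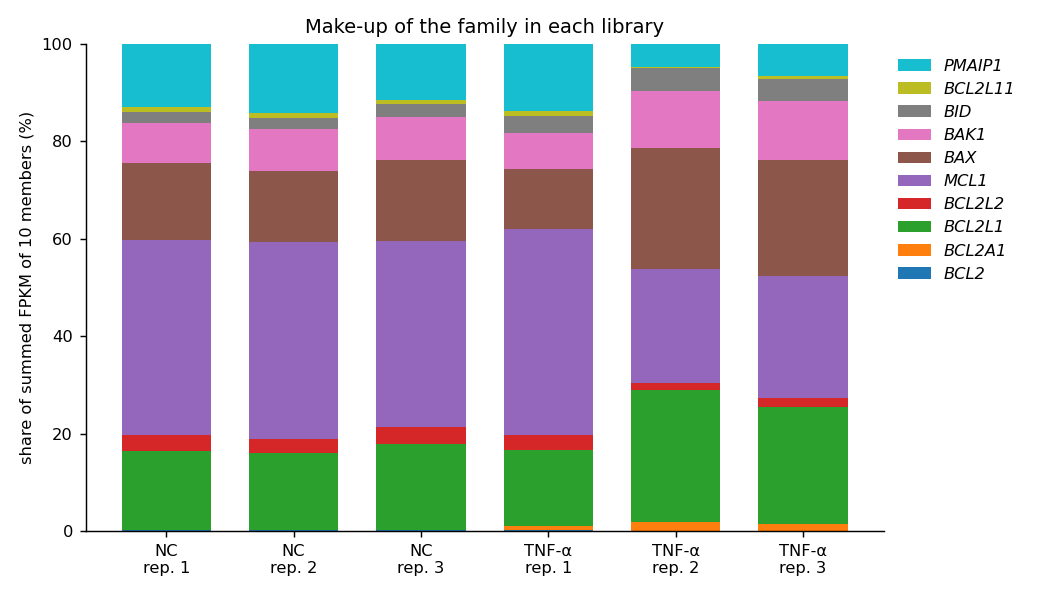
Share of the summed FPKM of the 10 members (y axis, %) held by each member in each of the 6 libraries (x axis). MCL1 holds 38.2% to 40.4% in the NC libraries, 42.4% in TNF-α replicate 1, and 23.3% and 25.1% in TNF-α replicates 2 and 3.

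Ratios between members followed the same division and are given without a test and without a correction for gene length or GC content. BAX and BCL2, for example, had 2587 and 11765 exonic bases, and 58.9% and 45.6% GC in their longest transcripts. The part of length and GC content in the ratios was not tested. The ratio of BAX to BCL2 was 61.8, 48.3 and 64.8 across NC replicates 1 to 3, against 46.7, 400 and 420 across TNF-α replicates 1 to 3. BCL2L1 stood to BCL2 at 53.1 to 69.1 in the NC libraries and at 59.4, 437 and 425 in the TNF-α libraries. BCL2L1 stood to MCL1, the other abundant pro-survival member, at 0.392 to 0.462 in the NC libraries and at 0.367, 1.17 and 0.960 in the TNF-α libraries. In these ratios TNF-α replicate 1 was inside or below the NC range, and replicates 2 and 3 were far above it. MCL1 stood to its antagonist PMAIP1 at 2.87 to 3.34 in the NC libraries and at 3.08, 5.03 and 3.77 in the TNF-α libraries. BCL2L11 stood to BCL2L1 at 0.0538 to 0.0637 in the NC libraries and at 0.0586, 0.0148 and 0.0215 in the TNF-α libraries.

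Of 13 further genes named for the family, 7 were tested and 0 passed in limma or limma-voom, with 2 at an unadjusted p under 0.05 in limma, beside 24.2% of all genes. Their median log2 fold change was 0.45, and -0.02 without TNF-α replicates 2 and 3, beside 0.04 and -0.01 over all genes. BBC3, the p53-responsive BH3-only gene that encodes PUMA, came closest, at 1.27, 1.26 and 1.66 FPKM in NC replicates 1 to 3 and 3.33, 4.93 and 5.47 FPKM in TNF-α replicates 1 to 3. All TNF-α libraries of BBC3 lay above all NC libraries, and the groups differed by a log2 fold change of 1.20 with an SE of 0.19 (adjusted p = 0.0512 in limma). It was 0.86 without TNF-α replicates 2 and 3, which leaves a lone TNF-α library, and 0.41 (adjusted p = 0.215 in limma) after the GC content and length correction. BNIP3, a mitophagy receptor, had a log2 fold change of 0.33, and BAD, a BH3-only gene whose product is controlled by phosphorylation, one of 1.19 (adjusted p = 0.195 in limma for both), which were 0.26 and -0.02 without TNF-α replicates 2 and 3. BAD was at 9.37 to 9.53 FPKM in the NC libraries and at 9.35, 41.0 and 30.2 FPKM across TNF-α replicates 1 to 3, so that it was high in replicates 2 and 3 only. BIK, a BH3-only gene of the endoplasmic reticulum named after its values were seen, was too low for the test, at 0.407, 0.256 and 0.359 FPKM in NC replicates 1 to 3 and 0.947, 3.08 and 1.73 FPKM in TNF-α replicates 1 to 3.

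Downstream of the family, 11 of 12 genes of the mitochondrial apoptosis machinery were tested and 0 passed in limma or limma-voom, with 1 at an unadjusted p under 0.05 in limma, beside 24.2% of all genes. Their median log2 fold change was 0.31, and -0.04 without TNF-α replicates 2 and 3, beside the same 0.04 and -0.01 over all genes. APAF1, which assembles the apoptosome on cytochrome c, was at 6.09, 6.21 and 5.92 FPKM in NC replicates 1 to 3 and at 5.87, 1.14 and 0.859 FPKM in TNF-α replicates 1 to 3. It followed the division of the libraries in the direction opposite to BAX, and its log2 fold change of -1.23 had an adjusted p of 0.195 in limma and was -0.04 without TNF-α replicates 2 and 3. CYCS, which encodes cytochrome c, and VDAC1, a channel of the outer membrane, had log2 fold changes of 0.39 and 0.32 (adjusted p = 0.198 and 0.199 in limma), and of 0.04 and 0.15 without TNF-α replicates 2 and 3. Of 14 partners and regulators of the family, all were tested and 0 passed in limma or limma-voom, with 4 at an unadjusted p under 0.05 in limma, a share near the 24.2% of all genes. Their median log2 fold change of 0.24 became 0.10 without TNF-α replicates 2 and 3. NFKB1, an NF-κB subunit, was at 9.04, 8.33 and 9.77 FPKM in NC replicates 1 to 3 and at 18.9, 14.1 and 14.6 FPKM in TNF-α replicates 1 to 3, and its log2 fold change of 0.74 had an adjusted p of 0.121 in limma. Unlike the effectors, NFKB1 was highest in TNF-α replicate 1, and without replicates 2 and 3 its value was 0.99 in that lone TNF-α library. RELA, the NF-κB subunit p65, and ATF4, a stress-response factor, had log2 fold changes of 0.70 and 0.96 (adjusted p = 0.194 and 0.195 in limma), and of 0.33 and 0.16 without TNF-α replicates 2 and 3.

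The genes whose profile over the 6 libraries was most like that of BCL2A1 were sought by the root mean square difference of log2(FPKM + 1), centred on each gene's mean, over 12127 tested genes outside the 10. The 5 nearest were NFKB2 and NFKBIE at 0.16, TNIP1 at 0.20, and SLC2A6 and C1QTNF1 at 0.22, where the median over all these genes was 1.36. NFKB2 encodes an NF-κB subunit, NFKBIE an inhibitor of NF-κB, TNIP1 a partner of the NF-κB regulator A20, SLC2A6 a sugar transporter and C1QTNF1 a secreted protein. NFKB2 was at 17.0, 15.8 and 18.7 FPKM in NC replicates 1 to 3 and at 71.9, 150 and 129 FPKM in TNF-α replicates 1 to 3. Like BCL2A1, it was above every NC library in TNF-α replicate 1 and higher still in replicates 2 and 3. All 5 passed the test, with log2 fold changes of 2.50 to 2.73 and adjusted p-values of 0.00965 to 0.0202 in limma, which the choice by likeness to BCL2A1 favours. The likeness holds on a scale that understates BCL2A1, whose NC levels were near 0. With a pseudocount of 0.1 the log2 fold change of BCL2A1 was 5.05, and the nearest genes were not sought with that pseudocount.

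**Figure D5:**
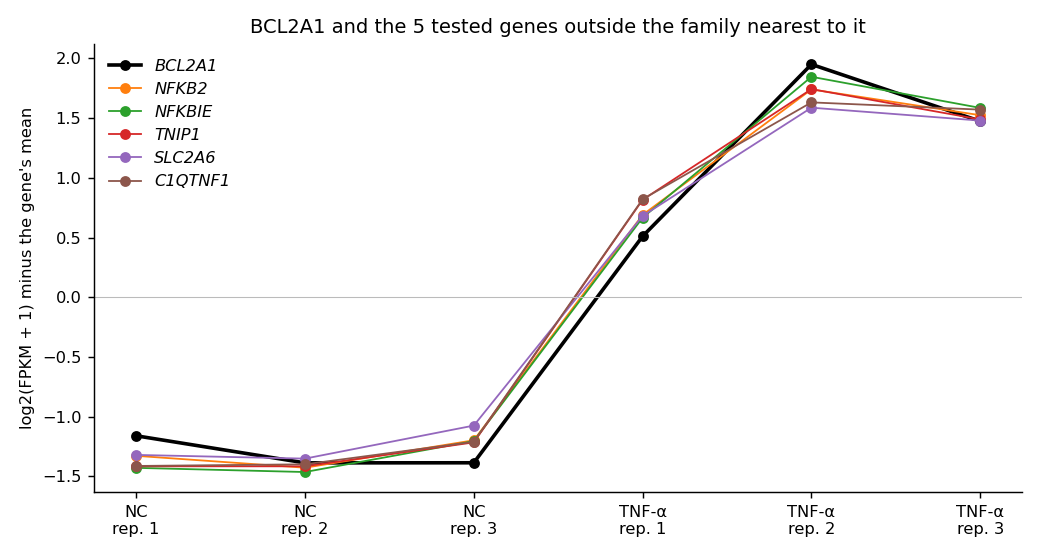
Log2(FPKM + 1) minus each gene's mean over the 6 libraries (y axis) for BCL2A1 and the 5 nearest genes (lines join the libraries of 1 gene, x axis). The 6 profiles lie within 0.22 of that of BCL2A1 in root mean square difference, low in the NC libraries, intermediate in TNF-α replicate 1 and high in TNF-α replicates 2 and 3. This scale understates the change of BCL2A1, which was near 0 in the NC libraries.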

How the data were processed

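The authors deposited 1 gene table of FPKM for 6 libraries, without pooling. Their processing notes list HISAT2 2.0.5, StringTie 1.3.3b and featureCounts 1.5.0 with no roles; the genome build and the use of strand are not given in the sources used here. All 58735 identifiers, starts, ends and lengths matched GENCODE 29 (GRCh38), and 6 further per-sample columns matched no sample and were not used. FPKM times gene length gave whole reads for 100% of values (tolerance 0.1 read), so that reads per gene were recovered. On the scale of log2(FPKM + 1), which understates changes of low genes, groups were compared with limma 3.58.1 in R 4.3.3 (trend, two-sided) for genes with FPKM of at least 1 in at least 3 libraries, with Benjamini-Hochberg adjustment and a threshold of 0.05. The fit was tested on simulated data drawn from the NC means. These had no deviating libraries and no difference by length or GC content, so that they do not bear on the split of the TNF-α libraries. Intervals from reads cover counting error only. The alternatives were pseudocounts of 0.1 and 0.5, other filters, TPM, quantile normalization, centring, corrections for length and for GC content and length (splines, 5 degrees of freedom), other eBayes options, limma-voom, a replicate block, and leaving out libraries. The members, the gene lists and the motifs were chosen with earlier results of these data known. Named genes were the 10 members, list members that passed or up to 3 with the smallest p, and the 5 genes nearest to the member with the smallest p. Sequences are from RefSeq (GRCh38.p14). Python 3.11.15 and matplotlib 3.10.9 made the tables and plots. One planned marker gene is not reported here.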

Additional observations from a re-analysis of the deposited data

How the results depend on the processing

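Over 180 pairs of a tested member and an alternative, 155 kept direction and side of the threshold, 8 lost the call (all BCL2A1), 7 gained one and 10 reversed. The number of members that passed, 1 with all libraries, was 0 when every gene above 0 was tested and 0 with limma-voom (3 each at an unadjusted p under 0.05), and 2 after the GC content and length correction and without both TNF-α replicates 2 and 3. Leaving out 1 library gave 0 to 6 members, with 6 without TNF-α replicate 1 and 0 without any other library in limma (2 each at an unadjusted p under 0.05). For all genes, 123 passed at first, 58 when every gene above 0 was tested, 58 with TPM, 185 with quantile normalization, 338 after the GC content and length correction, 732 without both TNF-α replicates 2 and 3, and 10 to 9630 without 1 library (9630 without TNF-α replicate 1, 17, 10 and 13 without NC replicates 1 to 3, 42 and 20 without TNF-α replicates 2 and 3). The log2 fold change of BCL2A1 lost its call at 2.62 when every gene above 0 was tested and at 6.19 with limma-voom, and was 2.30 to 3.02 without 1 library. With a replicate block 0 members (4 at an unadjusted p under 0.05) and 24 genes passed in limma, and BCL2A1 stood at 2.62 (adjusted p = 0.110 in limma). Same-numbered libraries correlated at -0.01, -0.18 and 0.12 in their deviations from the group means, and differently numbered libraries at -0.161 to 0.181. As TNF-α replicates 2 and 3 stood apart from replicate 1, these values cannot decide whether the numbers pair the libraries. Signs reversed for MCL1 with TPM (-0.34) and quantile normalization (-0.36), for BCL2L11 with quantile normalization (0.03), the length correction (0.02) and the GC content and length correction (0.17), and for PMAIP1 within -0.39 to 0.05 without 1 library. Without both TNF-α replicates 2 and 3 they reversed for BCL2 (0.08), BCL2L2 (0.10), BAX (-0.12), BCL2L11 (0.10) and PMAIP1 (0.32), and for the log2 ratios of BAX to BCL2 (-0.31), MCL1 to PMAIP1 (-0.01), BCL2L1 to BCL2 (-0.05), BCL2L1 to MCL1 (-0.19) and BCL2L11 to BCL2L1 (0.01). The cause of these changes was not tested, and fewer libraries widen the error. The fit without both TNF-α replicates 2 and 3 holds a lone TNF-α library, assumed to vary like the NC libraries. Fits that left out libraries kept the filter of all 6 libraries, which BCL2A1 passed only through its TNF-α libraries. A level of 3 reads was 0.0762 to 0.113 FPKM for BCL2A1, which limits its NC values.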
